A study of Mus musculus with 2 samples.

Results

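The weakest Sap130 summits are the 1448 peak summits with a score below 7.3, out of 14881 summits on nuclear chromosomes, or 9.73% of the list. Sap130 binding was mapped by chromatin immunoprecipitation and sequencing (ChIP-seq) in E12.5 hearts of C57BL/6 mice, with 1 library from 2 µg of a rabbit antibody against Sap130 and 1 library of input DNA made without antibody, from the same tissue, stage and strain. No mutant or treated hearts were used here, and the number of hearts behind each library is not stated. The score that the authors deposited for each summit is a −log10 value from the peak caller, of either a p or a q. It chose the members, so all scores below are descriptions. The summits list binding and not RNA, so the heart label was not checked against marker genes. With 1 ChIP library there is no replicate and no test between groups. Percentages carry exact (Clopper-Pearson) 95% intervals, and differences of percentages carry Newcombe 95% intervals. Both cover counting error only, and neighbouring summits are not independent.

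Sap130 is a subunit of the Sin3 corepressor, a complex that carries histone deacetylases and removes acetyl groups from histone tails. Sin3 has no DNA-binding domain of its own for specific sites and is brought to promoters by transcription factors such as the Mxd repressors and by chromatin-binding subunits. In ChIP-seq a peak caller compares reads in the antibody library with reads in the input, and the summit is the base where the enrichment is highest. The score grows with the excess of reads over the input and with depth.

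Promoters of genes with a weakest summit and no stronger one at their ends ranged from nearly free of CpG to dense in it. The 6 printed here belong to heart, signalling and histone genes, and in each the summit lay within 300 bp of the listed start. In all 6 the summit base itself lay outside the printed window, so the sequences are not those under the summits. They are RefSeq sequences of build GRCm38.p6, 250 bases before the start and 50 after it, 5′ to 3′ on the gene's strand. Capitals mark matches, on either strand, of 13 motifs listed further on.
Mybpc3: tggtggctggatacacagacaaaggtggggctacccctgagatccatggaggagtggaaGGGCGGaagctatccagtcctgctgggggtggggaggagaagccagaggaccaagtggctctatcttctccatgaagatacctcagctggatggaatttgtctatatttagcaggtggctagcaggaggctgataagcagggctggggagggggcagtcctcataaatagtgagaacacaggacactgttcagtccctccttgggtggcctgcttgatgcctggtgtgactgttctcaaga
Aldh1a2: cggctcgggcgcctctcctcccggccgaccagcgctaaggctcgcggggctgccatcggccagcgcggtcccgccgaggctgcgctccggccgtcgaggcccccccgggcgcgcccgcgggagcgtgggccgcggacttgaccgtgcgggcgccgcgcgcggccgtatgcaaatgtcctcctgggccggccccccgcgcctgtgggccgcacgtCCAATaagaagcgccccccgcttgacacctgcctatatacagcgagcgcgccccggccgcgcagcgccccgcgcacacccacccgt
Wnt7a: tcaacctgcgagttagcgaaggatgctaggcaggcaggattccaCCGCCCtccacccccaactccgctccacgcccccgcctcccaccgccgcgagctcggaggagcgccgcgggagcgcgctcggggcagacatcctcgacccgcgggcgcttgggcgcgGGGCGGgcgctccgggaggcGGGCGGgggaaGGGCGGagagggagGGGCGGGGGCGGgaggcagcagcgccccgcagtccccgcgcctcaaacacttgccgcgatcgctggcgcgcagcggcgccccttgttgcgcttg
Fgfr4: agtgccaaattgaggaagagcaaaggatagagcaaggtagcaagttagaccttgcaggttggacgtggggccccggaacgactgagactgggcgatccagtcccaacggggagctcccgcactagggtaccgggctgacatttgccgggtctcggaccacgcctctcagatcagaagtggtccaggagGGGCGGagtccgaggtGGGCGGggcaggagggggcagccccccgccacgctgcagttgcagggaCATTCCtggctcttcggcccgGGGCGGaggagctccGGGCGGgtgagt
Fgf5: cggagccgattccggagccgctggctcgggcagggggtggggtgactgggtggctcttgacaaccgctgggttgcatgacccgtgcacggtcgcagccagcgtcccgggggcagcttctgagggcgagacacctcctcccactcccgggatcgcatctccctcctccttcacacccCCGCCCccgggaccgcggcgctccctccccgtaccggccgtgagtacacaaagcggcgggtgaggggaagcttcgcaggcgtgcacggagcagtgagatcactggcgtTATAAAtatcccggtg
H1f5: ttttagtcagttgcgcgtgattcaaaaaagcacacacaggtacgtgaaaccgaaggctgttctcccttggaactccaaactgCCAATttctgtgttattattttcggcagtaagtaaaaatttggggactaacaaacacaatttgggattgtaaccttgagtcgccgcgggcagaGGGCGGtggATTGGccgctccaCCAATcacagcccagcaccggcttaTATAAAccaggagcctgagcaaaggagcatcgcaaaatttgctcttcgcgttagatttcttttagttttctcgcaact
Mybpc3, which encodes cardiac myosin-binding protein C of the thick filament, has the window chr2:91117894-91118193 on the plus strand, with 1 CpG and a ratio of observed to expected CpG of 0.048. Its only match was a GC box, and its summit of score 6.15 lay 154 bp past the start. Aldh1a2, of the retinoic acid synthesising enzyme of the epicardium, has the window chr9:71215539-71215838 on the plus strand, with 50 CpGs and a ratio of 1.11. A summit of score 6.19 lay 117 bp past its start. Wnt7a, a Wnt ligand gene, has the window chr6:91411304-91411603 on the minus strand, with 6 GC boxes, and its summit of 7.16 lay 166 bp past the start and 141 bp before the listed start of Gm30437. Fgfr4, an Fgf receptor gene, has the window chr13:55152568-55152867 on the plus strand, with 4 GC boxes and a Tead motif, and a summit of 2.78 at 82 bp past the start. The summit of Fgf5, an Fgf ligand gene with the window chr5:98253934-98254233 on the plus strand, had a score of 6.35 and lay 258 bp before the start. H1f5, of a linker histone, has the window chr13:21780576-21780875 on the minus strand, with 3 CCAAT boxes, 1 GC box and 1 TATA box, and a summit of 5.86 at 178 bp past the start.

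Members also lay beside microRNA genes outside protein-coding genes, and the mature sequences with a listed entry are shown with the seed, bases 2 to 8, in capitals. MicroRNAs silence messenger RNAs that pair with the seed.
mmu-miR-9-5p: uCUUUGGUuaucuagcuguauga
mmu-miR-9-3p: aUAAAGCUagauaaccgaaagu
mmu-miR-125b-5p: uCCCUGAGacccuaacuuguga
mmu-miR-125b-1-3p: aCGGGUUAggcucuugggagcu
mmu-miR-1a-1-5p: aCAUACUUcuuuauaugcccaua
The 6 mature sequences matched among these genes, of which 5 are printed, had 6 different seeds. Mir9-2, known for its role in neural progenitors, lay 162 bp from a summit of score 5.40, and Mir125b-1, which lies in the host transcript Mir100hg, 154 bp from a summit of 5.59. Mir1a-1, the muscle microRNA of heart and skeletal muscle, lay 206 bp from a summit of 5.79 in its host gene Mir1a-1hg, 3009 bp from a stronger summit of 19.2. Mir124a-1, a neuronal microRNA, had 3 weakest summits within 1000 bp, with scores of 5.59, 5.13 and 5.79, and the nearest stronger one 43078 bp or more away.

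Scores of the weakest summits lay between 2.104 and 7.29, around a median of 5.68 (quartiles 4.72 and 6.49), against a median of 38.5 for the 13433 stronger summits. They took only 505 different values, the most common, 4.75, being shared by 23 summits. Several summits just below the limit shared a score of 7.29, among them those in Cdc42bpa, Prickle1, Pcdh1, Plekhf2, Pou3f1 and Pak1. Just above it were summits in Garem2 and at Itgb1, both of score 7.302, in the long non-coding RNA gene Gm38293 (7.303), and in Ptbp3 and at Ikzf1, both of 7.31. Among the lowest scores were those in Slc38a2 (2.104), in Bmpr2 and Nav1 (both 2.16) and at Slitrk4 (2.25). Of these, Slc38a2, Bmpr2 and Nav1 had a stronger summit within 2500 bp, with scores of 72.9, 28.7 and 61.9. The members were on all 20 chromosomes that carried summits. They made up 16.2% of the summits of the X chromosome (68 of 420, interval 12.8 to 20.1) and 14.4% of those of chromosome 13 (88 of 609, 11.8 to 17.5), and from 7.67% (chromosome 4) to 11.9% (chromosome 10) of those on the others. The sex of the embryos is not given.

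The weakest summits lay at gene ends less often than stronger ones and deeper in genes more often. A summit counts as at a gene end where a boundary of a protein-coding gene, its start or its far end, is at most 1000 bp away. Of the weakest summits 716 were at a gene end (49.4%, 46.8 to 52.1), against 10221 of the stronger ones (76.1%, 75.4 to 76.8), a difference of -26.6 percentage points (-29.3 to -24.0). Elsewhere inside protein-coding genes lay 582 weakest summits (40.2%, 37.7 to 42.8), against 19.9% of the stronger ones, a difference of 20.2 points (17.7 to 22.9). Genes of other types held 96 weakest summits (6.63%, 5.40 to 8.04), against 2.44%, and 54 were intergenic (3.73%, 2.81 to 4.84), against 1.53%. Of the 1450 summits in the next band of scores, from the limit of 7.3 to 11.2, 57.2% (54.6 to 59.8) were at a gene end and 33.6% (31.2 to 36.1) elsewhere inside a gene. Shares of the weakest and the next band overlapped in their intervals for genes of other types (6.63% and 5.17%) and for intergenic summits (3.73% and 4.0%). With a window of 2500 bp the gap at gene ends was -15.7 points (-18.1 to -13.3), and with 500 bp it was -31.8 points (-34.3 to -29.2).

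**Figure D1:**
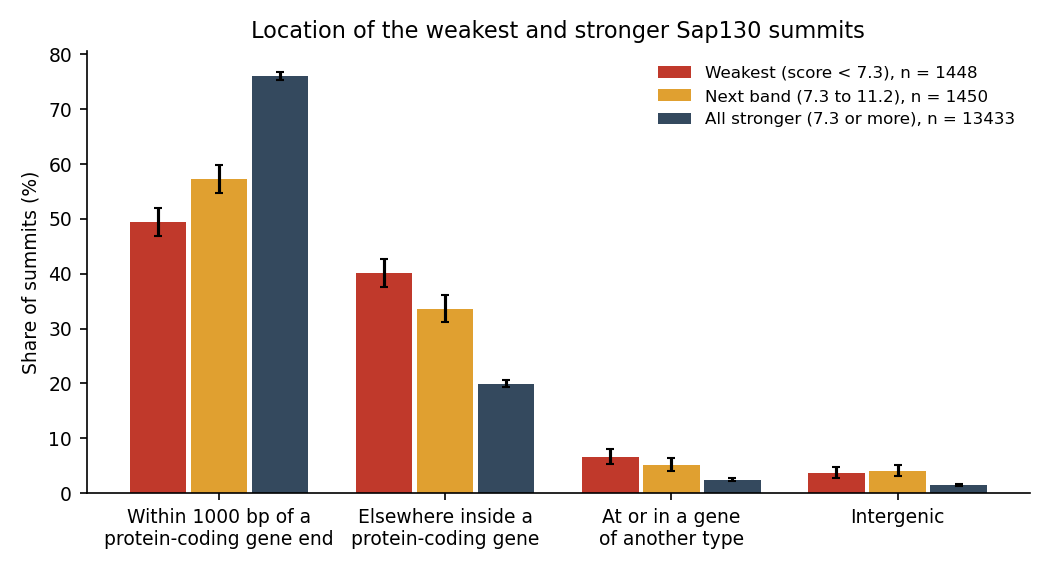
Share of summits (%) in each of 4 locations, for the weakest summits, the next band of scores and all stronger summits, which include that band; error bars are exact 95% intervals. The share at gene ends was 49.4% for the weakest, 57.2% for the next band and 76.1% for all stronger summits.

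Many of the weakest summits lay close to a stronger one, and those within 2500 bp of one are called satellites. The nearest stronger summit lay within 2500 bp for 688 of them (47.5%, 44.9 to 50.1), whereas 32.4% (31.7 to 33.2) of stronger summits had another stronger one that close, a difference of 15.1 points (12.4 to 17.8). Within 1000 bp the shares were 31.3% (453 summits) and 25.04%. The median distance was 3665 bp for the weakest (quartiles 814 and 44957 bp), against 16339 bp for the stronger ones (quartiles 999 and 56077 bp). The median for the weakest was 1847.5 bp with a score limit of 5, 6691 bp with a limit of 10, and 33518 bp to summits at or above the median score. Both sets of distances had a peak below 1000 bp and a broad one beyond 10000 bp, and within 100000 bp lay 85.4% of the weakest and 85.2% of the stronger ones. The stronger neighbours of the 688 had a median score of 35.3 (quartiles 16.2 and 72.0), near the 38.5 of all stronger summits, and a median of 6.72 times the score of the weakest summit beside them. In 82 of the 688 pairs the neighbour had less than 2 times the score. Scores of the 688 and of the other 760 weakest summits had medians of 5.59 and 5.69. Of the weakest summits 102 (7.04%) had another weakest one within 1000 bp, and the median distance to the nearest other one was 290260 bp. The weakest set is much smaller than the stronger one (1448 against 13433 summits), so these values cannot be set beside the distances to stronger summits. The closest pairs of a weakest and a stronger summit were in Creb3l2 (189 bp apart, scores 3.75 and 11.1), Mllt10 (193 bp, 3.26 and 20.2), Nrde2 (231 bp, 5.29 and 7.73), Srebf1, of the sterol-regulated factor (252 bp, 2.80 and 46.3), and at Tk1 and Afmid (274 bp, 6.49 and 15.7).

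**Figure D2:**
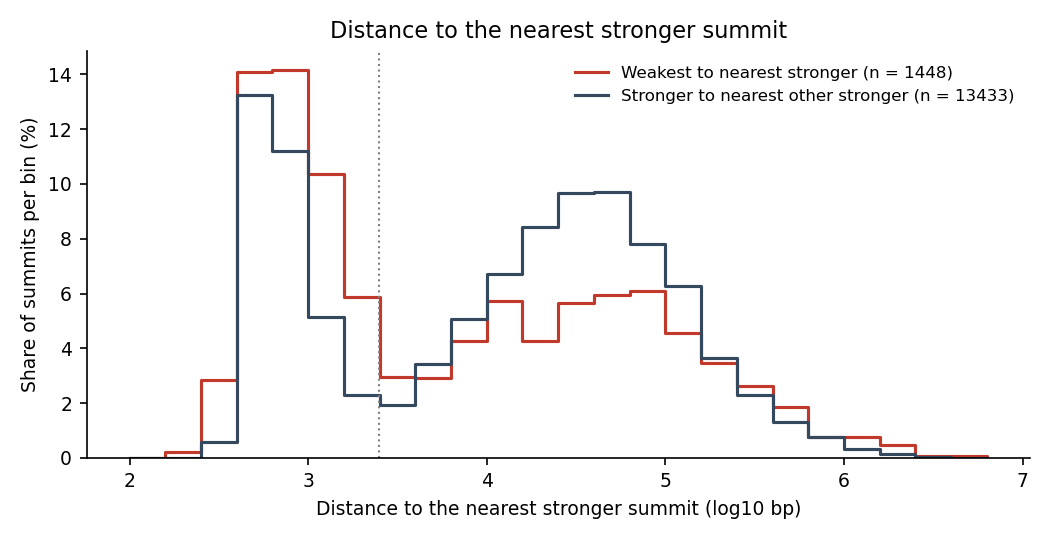
Distance to the nearest stronger summit (log10 bp) against the share of summits per bin (%), for the 1448 weakest summits and, to another stronger summit, the 13433 stronger ones; the dotted line marks 2500 bp. Both lines have a peak below 1000 bp and a broad peak beyond 10000 bp, and 47.5% of the weakest lie left of the dotted line, against 32.4% of the stronger.

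At the other extreme, a summit of score 6.98 in Pcdh9, a protocadherin gene, was 4278121 bp from the nearest stronger summit. That of Slitrk4, a neuronal transmembrane protein gene on the X chromosome, was 3383847 bp away, with a score of 2.25. Ptchd1 and Prdx4, both on the X chromosome, had summits of 4.80 and 6.00 at 1868739 and 1838336 bp.

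Among summits within 1000 bp of a listed start, weakest ones that stood alone lay, like stronger ones, mostly in the first 400 bp past it. Satellites lay mostly outside that stretch. They have a stronger summit nearby by definition, and no 2 summits lay closer than 189 bp. The grouping itself thus limits where satellites can lie, and its part in this contrast was not tested. Of the weakest summits 707 lay within 1000 bp of a start in the RefSeq promoter table (48.8%, 46.2 to 51.4), against 73.4% of stronger ones. That table lists starts for 17492 of 21779 protein-coding genes, so both shares are too low. It holds 32850 windows for 27025 genes of any type. The nearest start can thus be that of a non-coding gene or another start of the same gene. The 372 with no stronger summit within 2500 bp lay at a median of 151.5 bp past the start (quartiles 46 and 264.5), and the stronger ones at 177 bp (93 and 244). The first 400 bp past the start held 65.6% of these 372 (60.5 to 70.4) and 71.2% of the stronger ones (70.3 to 72.1), and 20.7% (16.7 to 25.2) and 18.4% (17.6 to 19.2) lay before the start. Of the 335 satellites at a start only 20.3% (16.1 to 25.01) were in those 400 bp, and 48.4% (42.9 to 53.9) lay before the start. The 200-bp bin that ends 200 bp before the start held 22.7% of the satellites, against 5.91% of the weakest summits away from a stronger one and 7.45% of stronger summits. From 600 to 1000 bp past the start lay 83 satellites, in 2 bins of 12.8% and 11.9%. For 105 of the 162 satellites before a start (64.8%), the stronger neighbour was in the first 400 bp past that start, at a median distance of 579 bp between the pair for all 162. For those 600 bp or more past the start this held in 62 of 83 cases (74.7%).

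**Figure D3:**
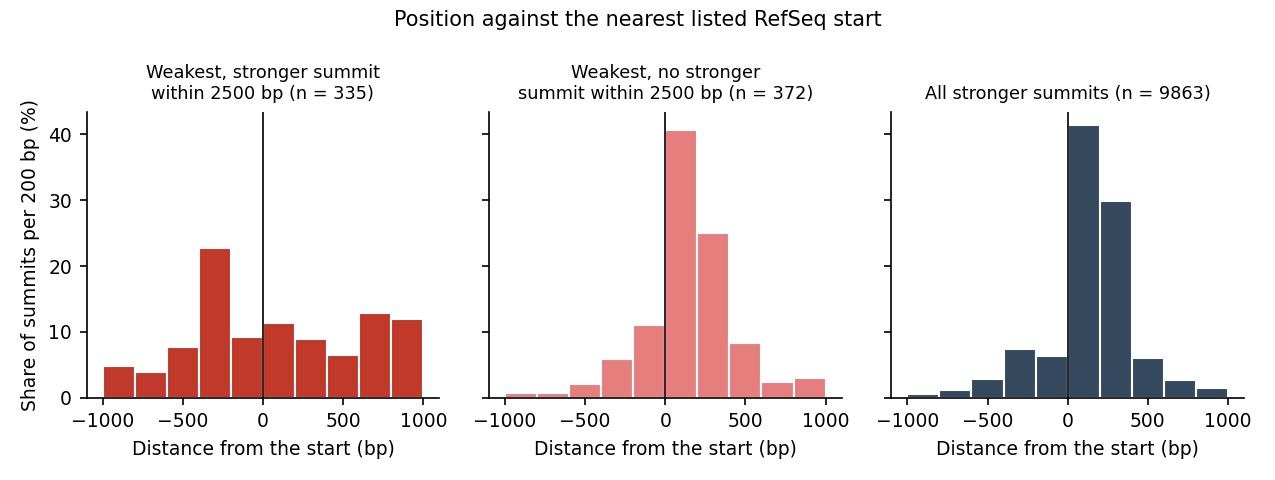
Position of summits against the nearest listed RefSeq start (bp, positive past the start) as a share per 200 bp (%), for weakest summits with and without a stronger summit within 2500 bp and for all stronger summits. The first 400 bp past the start hold 20.3%, 65.6% and 71.2% of them.

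Among summits in reach of 1 protein-coding gene only, 460 of 643 weakest ones lay inside the gene (71.5%, 67.9 to 74.999), at a median of 356 bp, against 87.1% of the stronger ones (86.4 to 87.8), at 241 bp. Without a stronger summit within 2500 bp the share inside was 88.8% (85.2 to 91.8), at a median of 275 bp, and with one it was 46.2% (39.98 to 52.4). Where the strand was listed, 461 of 496 weakest summits at a gene end were at the start of the gene (92.9%, 90.3 to 95.04) and 35 at its far end, against 99.0% (98.7 to 99.2) at the start for stronger summits. Only 73 of the 716 (10.2%) were in reach of 2 or more genes, against 16.8% of the stronger summits at gene ends.

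Of the 582 weakest summits elsewhere inside protein-coding genes, 335 were satellites within 2500 bp of a stronger summit and 247 were not. The satellites lay at a median of 2073 bp from the gene's boundary and the others at 6748 bp. Another listed start lay within 1000 bp of 27.3% (23.7 to 31.1) of the 582, against 56.8% (54.9 to 58.7) of the stronger summits of this class. More than 10000 bp from either boundary were 158 of them (27.1%), and 26.7% of the stronger ones. Among the deepest were those in Lsamp (648467 bp from the boundary, score 5.39), Tenm3 (617431 bp, 5.38), Robo2, an axon guidance receptor (519687 bp, 6.74), and Ntm (416965 bp, 4.79). Those of Tenm3 and Ntm had a stronger summit within 1000 bp, and those of Lsamp and Robo2 were 1343059 bp or more from one.

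Outside protein-coding genes the weakest summits were mostly at long non-coding RNA genes. Of the 96 in this class 76 (79.2%) were at or in such a gene, 22 (22.9%) at a transfer RNA gene and 6 (6.25%) at a microRNA gene. Some were counted under more than 1 type. Among 328 stronger summits of the class the shares were 78.7%, 17.1% and 5.49%, in the same order. Wherever they lay, 30 weakest summits (2.07%) were within reach of a transfer RNA gene, against 91 stronger ones (0.677%). The weakest summits reached 44 of 403 transfer RNA genes (10.9%), 34 of these with no stronger summit. Stronger summits reached 112 of them (27.8%). For long non-coding RNA genes the shares reached were 2.04% and 13.8%. Transfer RNA genes lie in clusters, and some summits were in reach of several. The most weakest summits in any gene of another type, 4, were in C130071C03Rik, the host transcript of Mir9-2 (scores 6.54, 5.40, 7.03 and 4.51), and in Mir124a-1hg (5.27, 5.59, 5.13 and 5.79). No stronger summit was within 1000 bp of these 8. Gata6os, antisense to the heart factor gene Gata6, held 2, with scores of 3.47 and 5.36, at 3675 and 2220 bp from a stronger one. The 54 intergenic summits lay at a median of 3795 bp from the nearest gene of any type, 15 of them over 10000 bp away, and 15 were within 2500 bp of a stronger summit. The 5 with the highest scores, 7.25, 7.23, 7.04, 7.04 and 7.04, were nearest to Gm6607, Nr4a3, Efna5, Bicra and Gm17786, at 1984, 1574, 2689, 4535 and 3496 bp.

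A weakest summit was at an end of 776 of 21779 protein-coding genes (3.56%), and 450 (2.07%) had no stronger summit at either end. These 450 are called marked by a weakest summit alone. They were 58.0% (54.4 to 61.5) of the 776, and 380 of them had no stronger summit inside the gene either. The other 326 genes also had a stronger summit at an end, with a median highest score of 47.0 (quartiles 21.1 and 83.0). Genes marked alone had a median length of 22222 bp, against 23859 bp for genes with a stronger summit and 11645 bp for those with none. Inside the gene or within 1000 bp of it, 1337 genes (6.14%) held a weakest summit and 479 (2.2%) held one with no stronger one. The 1337 genes had a median length of 29515 bp, against 17217 bp for all, and the part of gene length in the counts below was not tested.

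Contractile protein genes of heart muscle were marked by a weakest summit alone in 4 of 38 cases (10.5%), against 2.07% of all protein-coding genes. A stronger summit was at an end of 10 of the 38 (26.3%, against 46.3% of all genes). Only a gene without a stronger summit at an end can be marked alone, and the part of this in the counts of the lists was not tested. Tnnt2, cardiac troponin T of the thin filament, had a summit of score 6.93 (chr1:135836615), 300 bp inside the gene and 1856 bp from a stronger summit of 8.15. Mybpc3 had 6.15 (chr2:91118298) with a stronger summit of 23.2 at 992 bp, farther inside the gene. Xirp1, an actin-binding protein of the intercalated disc, had 5.59 (chr9:120023335), and Tcap, the titin cap of the Z-disc, 5.92 (chr11:98384090). The last 2 were 39755 and 16293 bp from a stronger summit. Counted over the whole gene, 11 of the 38 (28.9%) held a weakest summit, against 6.14% of all genes. A stronger one lay in 18 of the 38, against 52.8% of all genes. Only 4 of the 11, Xirp1, Tcap, Tnni1 and Csrp3, held no stronger one. Beside the genes marked alone, the 11 included Tnni1, a troponin I (6.58), and Csrp3, a mechanosensor protein of the Z-disc (5.91). Ttn, the giant titin filament, had 2 summits (3.52 and 5.82) over 100000 bp inside. Nebl (6.48), Cryab (5.49), Myl4, the atrial light chain (5.20), and Synpo2l with 2 summits (5.82 and 3.01) completed the 11. Of 33 ion channel and calcium handling genes 0 were marked by a weakest summit alone, against 2.07% of all genes, and 2 with a window of 2500 bp. A weakest summit lay somewhere in 6 (18.2%, against 6.14% of all genes), and a stronger one in 22 of the 33, against 52.8% of all genes. The genes of this list had a median length of 48713 bp. Of the 6, only Pln, phospholamban of calcium reuptake (6.46), held no stronger one. Among the others were Kcnh2 (4.56, beside a stronger summit of 76.5) and Cacna1c (3.17).

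Heart transcription factor genes held weakest summits in 15 of 48 cases (31.3%), against 6.14% of all genes, and 3 were marked alone at an end (6.25%, against 2.07%). Stronger summits were frequent in the list too, at an end of 32 of the 48 genes (66.7%, against 46.3% of all genes). Anywhere in the gene they were in 41, against 52.8% of all genes. Of the 15, only Hand1, Irx4 and Tbx5 held no stronger one. Those marked alone were Hand1, a factor of the left ventricle, with 2 summits of 6.55 and 5.81 the nearest stronger one being 25924 bp away and the summit of 6.55 lying 228 bp before the listed start of Gm32915, Irx4, a ventricular factor (7.03, 847 bp inside), and Nr2f2, of the atria and veins (2.75, 271 bp outside the gene). Tbx5, the factor of the atria and left ventricle whose loss underlies Holt-Oram syndrome in people, had 3 summits, described below, and no stronger one. Isl1, of second heart field progenitors, had a weakest summit of 4.68 at 457 bp from a stronger one of 16.1. Foxc1 (6.03) and Meis2 (5.59) also had one at an end together with a stronger one of 14.8 and 26.5. Inside the gene, Mef2c, a muscle factor gene, had 4.02, Smyd1, of a muscle histone methyltransferase, 6.81, Meis1 6.91, Sox11 5.74, Foxp1 3.95, and Irx1 and Irx2 3.01 and 3.16.

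In the signalling lists the counts were small. Notch pathway genes were marked alone in 3 of 32 cases (9.38%, against 2.07% of all genes): Dll4, the arterial Notch ligand (4.80 and 5.99), Maml2, a Notch coactivator (6.28, 1491 bp from a stronger summit), and Mfng, a glycosyltransferase that modifies Notch (5.50). Both summits of Dll4 also lay within reach of Gm14207, a long non-coding RNA gene at the same place, so they cannot be given to 1 of the pair. A stronger summit was at an end of 20 of the 32 Notch genes (62.5%, against 46.3% of all genes). With a window of 2500 bp the Notch count marked alone was 1. Of 43 Fgf and hedgehog genes 2 were, Fgf5 and Fgfr4, of 53 Wnt genes 1, Wnt7a, and of 46 TGF-beta and BMP genes 1, the BMP receptor gene Bmpr1b (6.84), a count of 0 with a window of 500 bp and 2 with 2500 bp. Shares of 4.65%, 1.89% and 2.17% stood beside the 2.07% of all genes. Bmp4, a BMP ligand of the outflow tract, held a weakest summit of 6.40 inside the gene, 1933 bp from its boundary and 372031 bp from a stronger one. Bmpr2, Smad6, Smad7, Ctnnb1 (beta-catenin), Lfng and Spry2 held weakest summits that were satellites of stronger ones, with scores from 2.16 (Bmpr2) to 6.73 (Smad7).

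Among genes of the lining and supporting cells, 1 of 30 endothelial markers was marked alone (3.33%, against 2.07% of all genes), the factor gene Sox7 (6.91, 83425 bp from a stronger summit). With windows of 500 and 2500 bp the count was 2 and 3. Sox18 had a weakest summit of 4.76 beside a stronger one of 7.69, and Sox17 one of 5.31 farther inside. Of 27 epicardial and fibroblast markers 3 were marked alone (11.1%, against 2.07% of all genes): Aldh1a2, the matrix gene Sparc (6.51, 888 bp from a stronger summit of 9.004) and Fbln2, fibulin 2 (4.79). Collagen and laminin genes were in 5 of 52 cases (9.62%): Col6a2 (4.75), Col13a1 with 2 summits (4.52 and 5.15), Col25a1 (6.51), Col4a5 (5.17) and Col5a2 (4.27). The 5 were 91558 bp or more from a stronger summit, and with a window of 500 bp the count was 3. Potassium channel genes were in 8 of 94 cases (8.51%), among them Kcnh3 (5.64), Kcnh4 (5.57), Kcna7 (6.26), Kcng1 (6.79) and Kcnf1 (7.12), and with a window of 500 bp the count was 3. Neuronal markers were in 2 of 34 cases (5.88%), Nefl (5.27) and Ret (4.45), and with a window of 500 bp the count was 1. Solute carrier genes (10 of 375, 2.67%) and Zfp zinc finger genes (12 of 397, 3.02%) had shares near the 2.07% of all genes. Zinc finger examples nearest to the boundary were Zfp512 (6.40), Zfp784 (5.80, shared with Zfp580), Zfp35 (5.74), Zfp120 (7.12) and Zfp971 (6.21). A stronger summit was at an end of 46.3% of all genes. In these lists the share was 33.3% (endothelial), 22.2% (epicardial and fibroblast), 28.8% (collagen and laminin) and 24.5% (potassium channels). It was 44.1% for neuronal markers, 44.0% for solute carriers and 58.2% for zinc finger genes. Its part in the counts marked alone was not tested.

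Of the 27 lists, 6 had 0 genes with a weakest summit inside or within 1000 bp, against 6.14% of all genes. The limits given here are those that a count of 0 allows by a floor of 3 counts, not exact intervals. They were 10.7% for 28 leukocyte and for 28 hepatocyte markers, 15% for 20 erythroid, 11.5% for 26 skeletal muscle and 8.82% for 34 germline markers, so a share like that of all genes was not detectable in these 5 lists. For 1105 olfactory receptor genes, which had no stronger summit at an end either, the limit was 0.271%. Of 28 epithelial markers 0 were marked at an end, against 3.56% of all genes. Inside the gene 2 held one (7.14%, against 6.14%), Nkx2-1 (5.001) and Cldn7 (3.49). In the Hox clusters 1 gene of 39 was marked alone (2.56%, near the 2.07% of all genes), and 0 with a window of 500 bp and 2 with 2500 bp. It was Hoxd8 (5.80, 96 bp past the listed start of Gm38462), and Hoxb2 held a weakest summit of 5.04 farther inside.

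None of 35 Sin3 complex genes, 79 cytoplasmic ribosomal protein genes and 55 cell cycle genes was marked by a weakest summit alone, against 2.07% of all genes. A stronger summit was at an end of 32, 74 and 51 of them, against 46.3% of all genes. With so many members carrying a stronger summit, few could be marked alone. Rbbp4, a histone-binding subunit, had a weakest summit of 5.35 at 430 bp from a stronger one of 24.8. It lay 850 bp outside the gene, in reach of Zbtb8os too and 252 bp past that gene's listed start. Mcm6, of the replicative helicase, had 5.79 beside 108. Cdt1, which loads that helicase, had 4.05 beside 59.1. Inside the gene Kdm5a, Phf12 and Ogt of the Sin3 list had weakest summits of 6.35, 5.27 and 4.51 with a stronger one within 2500 bp, and Arid4a and Tet1 had 4.75 and 5.96 with none that close. Of 32 genes in the Polycomb list 1 was marked alone (3.125%, against 2.07% of all genes), that of the subunit Phf19 (7.25), and 0 with a window of 500 bp.

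Clustered histone genes, which share short copies in tandem, carried weakest summits at 10 of 67 genes (14.9%, against 3.56% of all genes), 6 of them alone (8.96%, against 2.07%). Those marked alone were H4c2 (4.82), H1f5 (5.86), H3c14 (6.04), H3c11 (6.11), and H2bc9 and H3c7, which shared 1 summit of 5.71. H3c10 (4.24), H4c8 with 2 summits (5.42 and 4.66), H3c8 (3.50) and the linker histone gene H1f4 (7.04) had a stronger one too, with highest scores of 11.0, 14.5, 82.3 and 16.0. All but H3c14 are on chromosome 13. A stronger summit was at an end of 34 of the 67 histone genes (50.7%, against 46.3% of all genes). Reads in near-identical histone copies may be placed at the wrong gene, and the treatment of such reads is not stated.

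Of 283 gene families with 10 or more members, grouped by the letters of the symbol before the first digit, 197 had no gene marked by a weakest summit alone. The highest share was in the Adamts family of secreted matrix proteases, 3 of 19 (15.8%, against 2.07% of all protein-coding genes; Adamts6, Adamts14 and Adamts15), followed by the collagen genes with 5 of 44 (11.4%). Tspan followed with 2 of 20 and 7 families with 1 of 10 each, among them Adcy (Adcy4) and Ano (Ano4). These rest on 1 to 5 genes each.

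Most genes with a weakest summit had only 1, but 71 had 2 and 9 had 3. In Tbx5 the 3 summits of score 6.15, 5.47 and 4.99 lay side by side (chr5:119835372, chr5:119836174 and chr5:119837447). They were 38858 to 40933 bp from the gene's outer boundary, and the nearest stronger summit was 279118 bp away. No start of Tbx5 was listed, so their distance to one could not be given. Npr3, a natriuretic peptide receptor gene of the endocardium, had 5.47, 7.25 and 6.40 within 3177 bp of the gene's boundary, and Pdgfra, a growth factor receptor gene of mesenchyme, had 6.50, 7.04 and 5.38 within 5317 bp of it. Rfx2 (6.26, 5.93 and 7.12) and Efna1, an ephrin ligand gene (6.26, 4.57 and 6.00), had no stronger summit either. In Col2a1, a collagen gene of cartilage, 3 summits of 4.75, 5.72 and 6.56 lay between stronger ones of 14.7 and 20.2. Igf2r, an imprinted receptor gene overlapped by its antisense transcript Airn, had 3.28, 5.20 and 6.76 with stronger summits of 19.0 and 58.3. Nav1 and Nfia had 3 as well, beside 4 and 2 stronger ones. These genes were picked after their counts were seen.

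**Figure D4:**
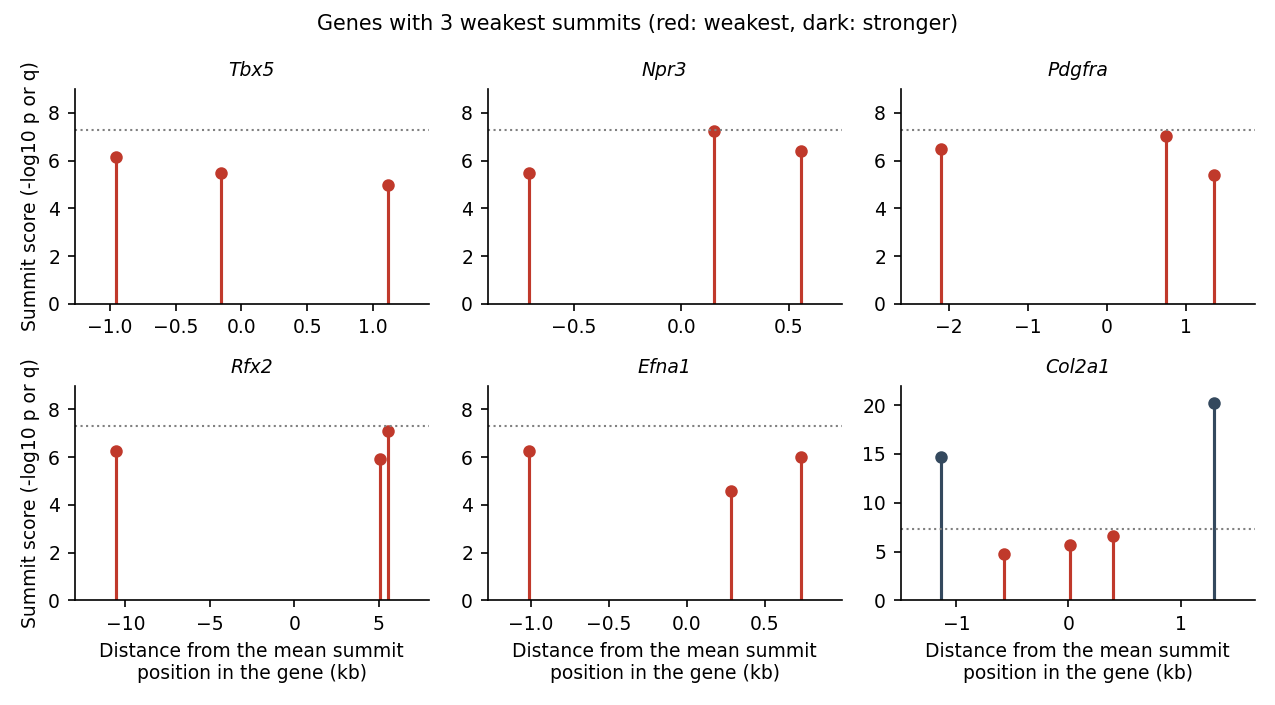
Summit scores (−log10 p or q) against distance from the mean summit position in 6 genes with 3 weakest summits (kb); red stands for weakest and dark for stronger summits, and the dotted line is the limit of 7.3. Tbx5, Npr3, Pdgfra, Rfx2 and Efna1 have weakest summits and none stronger, and Col2a1, drawn on a taller axis, has stronger ones of 14.7 and 20.2 on either side.

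Among promoters listed by RefSeq, those of genes marked by a weakest summit alone were CpG-rich less often than those of genes with a stronger summit, and more often than those with none. A promoter was called CpG-rich with a GC content of 55% or more and a ratio of observed to expected CpG of 0.6 or more. Of 340 genes marked alone that had a listed promoter, 160 were CpG-rich (47.1%, 41.7 to 52.5), against 71.3% (70.3 to 72.3) of 8133 genes with a stronger summit, a difference of -24.2 points (-29.6 to -18.8). Of 9019 genes with no summit at an end 14.0% (13.3 to 14.7) were, 33.1 points (27.8 to 38.4) below the genes marked alone. Median ratios were 0.65, 0.81 and 0.24 in that order. Genes whose highest score at an end was in the next band had 47.6% (42.5 to 52.7), and the 262 genes with both a weakest and a stronger summit had 70.2% (64.3 to 75.7). A promoter was listed for 75.6% of the genes marked alone and for 80.7% of those with a stronger summit. That is under 80% of the genes marked alone, so as a check on all of them the comparison is void, and these values and the motif shares that follow describe the listed promoters only.

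**Figure D5:**
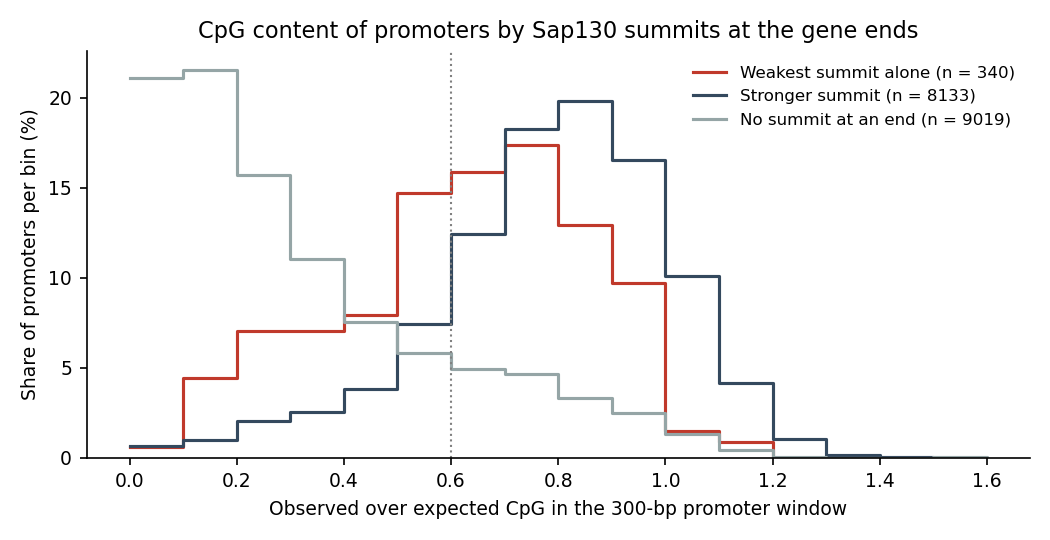
Ratio of observed to expected CpG in the 300-bp promoter window against the share of promoters per bin (%), for genes marked by a weakest summit alone (n = 340), genes with a stronger summit (n = 8133) and genes with no summit at an end (n = 9019). The medians are 0.65, 0.81 and 0.24, and the dotted line marks 0.6.

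The same promoters were searched for 13 motifs on both strands. The GC box GGGCGG, of Sp1 and Klf factors, was in 58.8% (53.4 to 64.1) of promoters of genes marked alone, 70.5% of those with a stronger summit, 24.1% of those with none and 46.3% of all. The Ets motif CCGGAAG was in 7.65% (5.06 to 11.0), against 20.3%, 4.49% and 11.9%, and the E-box CACGTG, of Myc, Max and Mxd proteins, in 6.76% (4.34 to 9.98), against 11.0%, 5.13% and 7.91%. The Nrf1 motif GCATGCGC was in 2.65% (1.22 to 4.97), against 6.46%, 1.08% and 3.61%. The TATA box TATAAA was in 7.94% (5.30 to 11.3), against 5.94%, 20.2% and 13.3%, and CCAAT in 40.3% (35.0 to 45.7), against 39.1%, 39.2% and 39.2%. The Tead motif GGAATG was in 14.1% (10.6 to 18.3), against 11.1%, 15.6% and 13.5%. The other motifs were in at most 6 of the 340: TTTNGCGC of E2F in 1, AAGATGGCG of YY1 in 5, CTACAATTC of Znf143 and Thap11 in 0 (interval up to 1.08%), TGACGTCA of Creb and Atf factors in 6, CTATTTATA of Mef2 in 3 and TTCAGCACC, part of the Rest site, in 2. In all promoters these were in 1.76%, 1.92%, 0.515%, 2.33%, 0.452% and 0.412%, in the same order. The Mef2 motif read on the other strand holds a TATA box, so each of its matches counts under both. CpG content was not held equal in these shares, and its part in them was not tested.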

How the data were processed

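Per the submitters' processing notes, Bowtie 1.1.2 and MACS2 2.1.0.20140616 were used with build GRCm38 (mm10). Settings, peak threshold and the handling of duplicate or multiply mapped reads are not stated. The authors deposited 14886 summits of 1 base, each with a score taken as a −log10 value. Whether it comes from p or q could not be settled. Read counts were not used here, so the depth is unknown, and the score, which grows with depth, served only to rank and filter within the list. The 5 mitochondrial summits were left out.

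Genes came from a RefSeq table of GRCm38.p6: 49603 of 49997 genes were kept, without those that are mitochondrial, unplaced or, except on Y, begin within 3 Mb of the chromosome's first base. Starts, strands and promoter sequences came from a RefSeq table with 17492 of 21779 protein-coding genes, none on chromosome 18. A gene's promoter is the listed window nearest to its boundary. The members and the 27 gene lists were chosen with earlier results of these data known, and 1 symbol stayed unmatched. Named genes are those at the extremes of score, distance and depth in the gene, up to 6 marked members per list (some are not reported here), and members of short lists chosen after their values were seen. The split at 2500 bp and the use of listed starts were also chosen after seeing the data. Software was pandas 2.3.3, scipy 1.17.1 and numpy 2.4.6 under Python 3.11.15, with plots by matplotlib 3.10.9. The classification was tested on simulated data.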

Additional observations from a re-analysis of the deposited data

Results flagged for a closer look

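Outside the comparisons, which used nuclear chromosomes only, the list held 5 summits on the mitochondrial genome. Of these 4 had scores below 7.3, and the 5 ran from 3.56 to 7.44. They were set apart because no comparison used them, and mitochondrial genomes are present in many copies per cell.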

How the results depend on the processing

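With 500 and 2500 bp the share of weakest summits at gene ends was 32.7% and 69.9%, elsewhere inside genes 53.8% and 21.4%, and intergenic 6.35% and 2.62%. Genes marked alone were 70.8% and 40.8% of genes with a weakest summit at an end. A stronger summit lay within 500 bp of 8.84% and within 2500 bp of 47.5%. Listed starts lay within 500 bp of 36.6% and within 2500 bp of 65.1%. With a score limit of 5 or of 10, a stronger summit lay within 1000 bp of 36.3% and 28.3%, at a median distance of 1847.5 and 6691 bp. With the limit of 5, genes marked alone were 53.6%. To summits at or above the median score the median distance was 33518 bp. Without the summits within 1000 bp of a stronger one, 45.6% were at gene ends. Leaving out summits shared by 2 or more genes, 65.4% of the genes were marked alone. With a CpG ratio of 0.75 as the limit, 26.5% of promoters of genes marked alone were CpG-rich, against 54.4% of those with a stronger summit. The other settings moved no share or median outside its main interval. Of the 27 lists, the count of genes marked alone moved over 1.5 times for 7 with 500 bp and for 6 with 2500 bp, and for 0 without shared summits. With 500 bp it was 3 for potassium channels, 3 for collagens and laminins, 2 for endothelial, 1 for neuronal and 0 for Hox, Polycomb and TGF-beta genes. With 2500 bp it was 1 for Notch, 3 for endothelial and 2 for Hox, TGF-beta, epithelial and ion channel genes. No paired analysis was possible because there is 1 ChIP library. Depth is unknown, so which weak sites were missed cannot be said.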
